A study of Arabidopsis thaliana with 18 samples.

Results

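The sucrose response of a double mutant of the transcription factor genes GNC and GNL, named gnc gnl, was compared with that of its parent accession Col-0 in dark-grown Arabidopsis thaliana seedlings. For each gene the response was the log2 ratio of its level with sucrose over its level without, and the quantity tested was the response in gnc gnl minus the response in Col-0, called the difference here. It used 12 of the series' 18 RNA sequencing libraries, 3 in each of 4 groups. Col-0 MS and gnc gnl MS were seedlings on 1/2 MS, a Murashige and Skoog salt medium without added sugar, and Col-0 SUC and gnc gnl SUC were seedlings on the same medium with 1% sucrose. All groups were 3-day-old whole seedlings kept in the dark at 21 °C, and gnc gnl carries its mutations in the Col-0 background. The mutant alleles are not described in the labels. The other 6 libraries are of the transgenic line GNLox, a GNL overexpressor, on the same media. They enter only the filter, the scaling and the estimate of the spread, and the choice of sucrose-responsive genes below. The question put by the contrast is whether loss of the GATA factors alters what sucrose does to the transcriptome in darkness.

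GNC and GNL are zinc-finger transcription factors of the B-GATA class, which bind DNA around the letters GATA. They are known in Arabidopsis as regulators of greening, chlorophyll synthesis and plastid development, and they act downstream of gibberellin, auxin and light signalling. Sucrose is both a carbon source and a signal in seedlings. In the dark it is known to repress genes of carbon starvation and amino acid breakdown and to raise genes of growth, cell division and secondary metabolism. A seedling mixes hypocotyl, cotyledon and root, so fewer cells of a type and less RNA per cell cannot be told apart in these values.

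No gene passed the test for a different sucrose response: 0 of 21903 genes (0.0%) had an adjusted p under 0.05 in edgeR's quasi-likelihood test. At an unadjusted p under 0.05 there were 1656 genes (7.56%), of which 609 had a positive and 1047 a negative difference. The lowest unadjusted p was 4.64e-06 and the lowest adjusted p 0.102, both for APK2. DESeq2's Wald test on the same reads called 68 genes, 12 with a positive and 56 with a negative difference, so the count of 0 belongs to the edgeR test. Of the 56, 55 had also risen with sucrose in Col-0 by the edgeR test, beside 26.0% of all genes. Of the 12, 10 had fallen there, beside 23.8%. The Col-0 response is part of the difference, so genes picked by the difference tend to have large Col-0 responses. These counts are therefore no separate evidence. The precision was moderate: the median SE of the difference was 0.228 on the log2 scale, and the 95% interval lay within 1 log2 unit of 0 for 14687 genes (67.1%). For the other genes the interval reached past 1 log2 unit on at least one side.

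Both genotypes responded widely to sucrose. In Col-0, 5687 genes (26.0%) rose and 5216 (23.8%) fell, and in gnc gnl 3925 (17.9%) rose and 3138 (14.3%) fell. Over the 21903 genes the responses had a Pearson r of 0.804 and a Spearman rho of 0.832, given as a description because genes are not independent replicates. The genotypes share no library in this correlation, although they share the medium and the fit. The spread of the responses was larger in Col-0, with an SD of 0.991 against 0.78 in gnc gnl, and a median absolute response of 0.406 against 0.29. The numbers of genes called in each genotype were not compared by a test of their own. Between genotypes, 283 genes (1.29%) differed on MS and 35 (0.16%) on SUC.

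**Figure D1:**
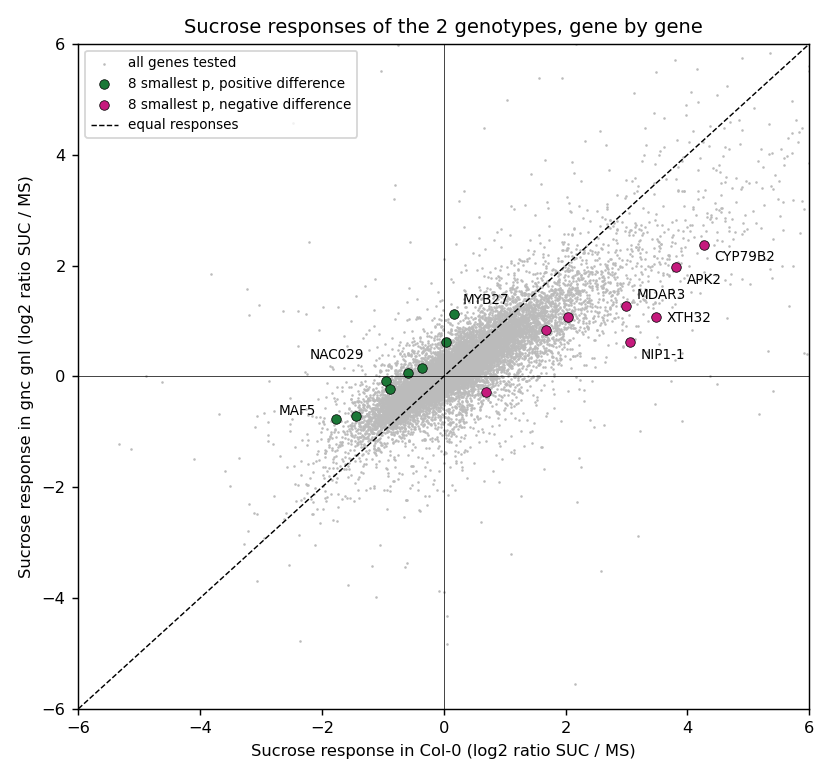
Sucrose response (log2 ratio SUC over MS) in Col-0 on the x axis and in gnc gnl on the y axis, 1 point a gene, with 87 genes outside the axes; the dashed line marks equal responses. Coloured points are the 8 genes of smallest p in each direction: the negative ones (pink) lie to the right of the line at higher Col-0 responses and the positive ones (green) lie to its left.

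Total gene reads in the 12 libraries ranged from 27362791 to 41942516. The libraries differed in composition: reads of nuclear rRNA genes made up 7.63% to 14.5% in Col-0 MS, 5.59% to 22.0% in Col-0 SUC, 11.8% to 23.2% in gnc gnl MS and 4.76% to 11.1% in gnc gnl SUC. Plastid genes took 6.37% to 8.69%, 2.76% to 6.30%, 5.79% to 12.4% and 2.70% to 5.26% in the same order. These shares move with the groups, most in gnc gnl. The fit on nuclear genes without rRNA genes called 0 genes, and the fit without both libraries over 20% nuclear rRNA called 1 gene, APK2. As the main fit also called 0 genes, such counts cannot say what part the shares have in the differences. That part was not tested. The labelled tissue had its markers: PORA and PORB, the protochlorophyllide oxidoreductases of dark-grown plants, were at 68.8 to 350.4 CPM (counts scaled to the size of the normalized library) and 94.9 to 524 CPM, and HLS1, which shapes the apical hook, was at 11.3 to 19.6 CPM. Light-harvesting LHCB1.3 was at 822 to 5952 CPM, LHCB1.1 at 11.3 to 433 CPM and the small Rubisco subunit gene RBCS1A at 522 to 1537 CPM. These genes, listed as markers of light-grown leaf, were thus not near 0. ELIP1 and ELIP2, also listed as such markers, are not given here. The 12 markers of ungerminated seed were at most at 4.42 CPM in the Col-0 groups and gnc gnl MS, and the storage protein gene CRA1 reached 15.3 CPM in gnc gnl SUC.

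The mutated genes came first as a check of the labels. GNC (AT5G56860, GATA21) was at 17.3, 35.4 and 29.4 CPM in Col-0 MS, 12.5, 18.6 and 12.1 CPM in Col-0 SUC, 9.26, 9.23 and 8.51 CPM in gnc gnl MS and 5.26, 6.31 and 6.41 CPM in gnc gnl SUC. All gnc gnl libraries lay below all Col-0 libraries, and GNC was lower in gnc gnl on MS (log2 ratio -1.61 ± 0.29, adjusted p = 0.0195). It fell with sucrose in Col-0 by 0.93 ± 0.28 on the log2 scale, and its response in gnc gnl was -0.58 ± 0.29, for a difference of 0.34 ± 0.40 (95% interval -0.52 to 1.2, adjusted p = 0.854). GNL (AT4G26150, GATA22) was at 5.85, 21.8 and 12.9 CPM in Col-0 MS, 0.971, 2.38 and 2.36 CPM in Col-0 SUC, 7.12, 10.6 and 11.1 CPM in gnc gnl MS and 3.89, 5.32 and 3.16 CPM in gnc gnl SUC. Its gnc gnl libraries overlapped those of Col-0 on MS and lay above them on SUC, so the reads of GNL did not set the mutant below Col-0. GNL fell with sucrose in both genotypes, by 2.81 ± 0.44 in Col-0 and by 1.23 ± 0.41 in gnc gnl, and the difference was 1.58 ± 0.59 (interval 0.33 to 2.83, adjusted p = 0.57). Since the alleles are not described, GNL reads are no check of the label. Of the other B-GATA genes, GATA17 had a difference of 0.47 ± 0.30, and of the 8 tested members of the family 6 had a positive difference.

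Sucrose-responsive genes were chosen in 2 sets by their response in GNLox: the genes that rose (6276, 28.7%) and the genes that fell (5721, 26.1%) there with sucrose. The GNLox fold changes use none of the 12 libraries, but the filter, scaling and spread behind those calls come from the fit of all 18. Nuclear rRNA reads made up 6.19%, 4.96% and 25.4% in GNLox MS and 4.40%, 1.00% and 2.52% in GNLox SUC. Plastid reads made up 3.44%, 4.95% and 23.3% in GNLox MS and 1.55%, 0.915% and 1.01% in GNLox SUC. What part these shares had in the choice of the sets was not tested. GNL was at 2839 to 6289 CPM in the GNLox libraries, against 0.971 to 21.8 CPM in Col-0. The sets were thus chosen in a line with GNL far above its Col-0 level. For the genes that rose in GNLox, the median response was 0.66 in Col-0 and 0.47 in gnc gnl. The median difference was -0.17, and 4811 of the 6276 genes (76.7%) had a negative difference, beside 49.3% of all genes tested. At an unadjusted p under 0.05, 742 were negative (11.8%, beside 4.78% of all genes) and 36 positive (0.574%, beside 2.78%). For the genes that fell in GNLox the median response was -0.48 in Col-0 and -0.33 in gnc gnl, the median difference was 0.15, and 4586 (80.2%) had a positive difference, beside 50.7% of all genes. At an unadjusted p under 0.05, 388 of these were positive (6.78%, beside 2.78% of all genes) and 25 negative (0.437%, beside 4.78%). The 9906 genes not called in GNLox had a median difference of 0.01. The median response of each set was nearer 0 in gnc gnl than in Col-0. No member was called in the difference by edgeR. DESeq2 called 47 of the 6276 members of the first set and 11 of the 5721 of the second, beside 68 of all 21896 genes in that test.

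The levels of these sets in single libraries are given for each medium, without a test. Averaged over the genes that rose in GNLox, the level relative to the Col-0 MS mean was 0.08, -0.02 and -0.06 (log2) in the Col-0 MS libraries and 0.24, 0.09 and 0.09 in gnc gnl MS. It was 0.76, 0.72 and 0.65 in Col-0 SUC and 0.66, 0.61 and 0.69 in gnc gnl SUC. The groups did not overlap on MS, where gnc gnl was higher, and overlapped on SUC. For the genes that fell in GNLox, the values were -0.07, -0.01 and 0.07 in Col-0 MS and -0.19, -0.08 and -0.08 in gnc gnl MS. They were -0.54, -0.51 and -0.44 in Col-0 SUC and -0.51, -0.42 and -0.48 in gnc gnl SUC. Here gnc gnl was lower on MS without overlap, and the groups again overlapped on SUC. The gaps on MS were thin. The nearest libraries were at 0.0771 in Col-0 and 0.0871 in gnc gnl for the first set, and at -0.0658 and -0.0807 for the second. The pooled SD within groups was 0.0645 and 0.0582. Gene by gene the medians also lay further from 0 on MS. Among the genes that rose in GNLox the median log2 ratio of gnc gnl over Col-0 was 0.14 on MS and -0.03 on SUC. Among those that fell it was -0.12 and 0.02. Leaving out any one library kept the sign of both medians, between -0.223 and -0.115 for the first set and between 0.103 and 0.191 for the second.

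**Figure D2:**
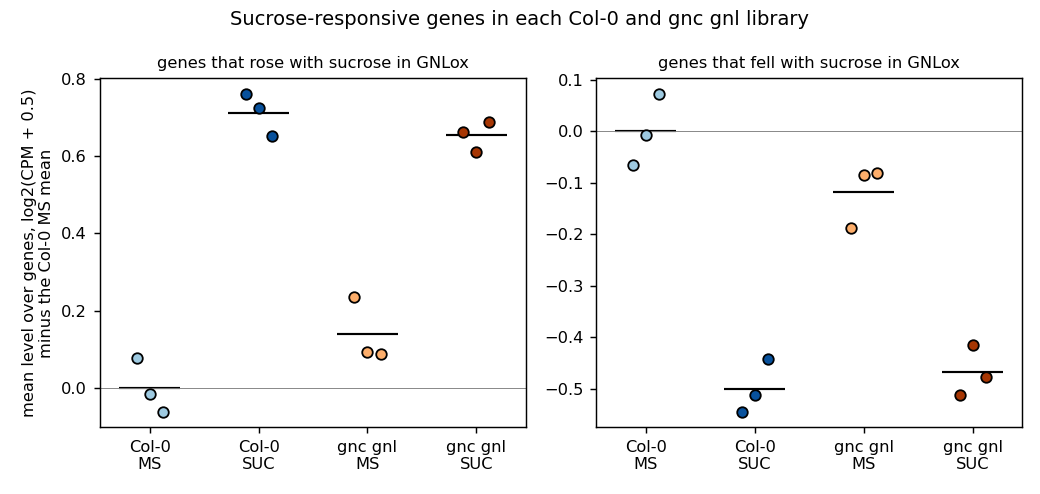
Mean level over the 6276 genes that rose (left) and the 5721 genes that fell (right) with sucrose in GNLox, as log2(CPM + 0.5) minus the Col-0 MS mean; 1 point a library, bars are means of 3. The gnc gnl MS libraries lie above Col-0 MS on the left and below it on the right, while the SUC groups overlap in both panels.

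Among stronger responders the medians lay further apart for induced than for repressed genes. The 871 genes with a rise of 2 or more log2 units in GNLox had a median response of 2.49 in Col-0 and 1.76 in gnc gnl, and 728 of them (83.6%) had a negative difference, with a median of -0.72. On MS their median ratio of gnc gnl over Col-0 was 0.48, and on SUC it was -0.26. The 374 genes with a fall of 2 or more had a median response of -0.83 in both genotypes, a median difference of 0.14, and 207 positive against 167 negative differences. These 374 genes were imprecise: the median SE was 0.76, beside 0.18 for all genes that fell in GNLox. Only 8 (2.14%) had an interval within 1 log2 unit of 0, and 139 were called lower in Col-0. For the 871 genes the median SE was 0.65, 43 (4.94%) had such an interval, and 789 were called higher in Col-0. Whether the induced and the repressed genes differ in the gap between genotypes was not tested.

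Of single genes, the 8 with the smallest p in each direction are described next, and none passed the edgeR test: their adjusted p ran from 0.102 to 0.328. All 16 were called by DESeq2. APK2 (AT4G39940) encodes an APS kinase, which makes the activated sulfate used to sulfate glucosinolates. It was at 1.4, 1.58 and 1.22 CPM in Col-0 MS, 21.9, 19.9 and 17.1 CPM in Col-0 SUC, 4.24, 2.31 and 3.92 CPM in gnc gnl MS and 11.7, 13.6 and 15.9 CPM in gnc gnl SUC. The Col-0 groups lay outside the gnc gnl groups at both ends, lowest on MS and highest on SUC. APK2 rose in both genotypes, by 3.81 ± 0.20 (log2) in Col-0 and 1.97 ± 0.18 in gnc gnl, and it was higher in gnc gnl on MS (log2 1.33 ± 0.21, adjusted p = 0.00975). Its difference was -1.84 ± 0.27 (interval -2.41 to -1.28, adjusted p = 0.102). Without gnc gnl MS replicate 2 the difference was -2.06 and the adjusted p 0.00218, a call.

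CYP79B2 (AT4G39950), the cytochrome P450 that turns tryptophan into indole-3-acetaldoxime, the entry to indole glucosinolates and camalexin, was at 2.41, 3.62 and 2.49 CPM in Col-0 MS, 55.9, 54.8 and 53.1 CPM in Col-0 SUC, 9.22, 5.64 and 4.52 CPM in gnc gnl MS and 23.3, 39.8 and 37.8 CPM in gnc gnl SUC. Col-0 libraries were the lowest on MS and the highest on SUC, with no overlap between genotypes on either medium. The gene rose by 4.27 ± 0.28 in Col-0 and 2.38 ± 0.26 in gnc gnl, and the difference was -1.89 ± 0.37 (adjusted p = 0.293). ASB1 (AT1G25220), the beta subunit of anthranilate synthase in tryptophan synthesis, was at 5.33, 5.72 and 4.83 CPM in Col-0 MS, 22, 24.8 and 18.8 CPM in Col-0 SUC, 8.37, 5.97 and 8.32 CPM in gnc gnl MS and 15.5, 15.4 and 16.7 CPM in gnc gnl SUC. It too was lowest in Col-0 MS and highest in Col-0 SUC without overlap. Its rise was 2.05 ± 0.13 in Col-0 and 1.07 ± 0.13 in gnc gnl, a difference of -0.98 ± 0.18 (adjusted p = 0.293).

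The windows from 250 bases before to 50 after the annotated starts of these 3 genes and of AT5G57670 are printed to show what they hold. AT5G57670 had the smallest p in the other direction. AT4G23500 had a smaller p than CYP79B2 and ASB1, and its window is not printed. The printed windows were chosen after the values were seen. They were read from the TAIR10.1 assembly, in which 32532 of 32548 nuclear genes have the same start and end as in the deposited tables. Capitals mark a match, on either strand, to a GATA box (any of AGATAA or the variant AGATAG, or else TGATAA with its variant TGATAG), to the sucrose-repressible element TTATCC, the G-box CACGTG, the evening element AAATATCT, the telo-box AAACCCTA or the W-box core TTGACC, and no motif contains another.
APK2, chr4:18519349-18519648, plus strand: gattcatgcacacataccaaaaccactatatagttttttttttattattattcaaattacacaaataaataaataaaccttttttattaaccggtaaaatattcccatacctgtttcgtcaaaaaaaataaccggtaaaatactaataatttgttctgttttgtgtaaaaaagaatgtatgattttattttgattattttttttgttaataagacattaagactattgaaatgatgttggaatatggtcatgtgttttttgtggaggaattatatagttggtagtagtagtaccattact
CYP79B2, chr4:18524792-18525091, plus strand: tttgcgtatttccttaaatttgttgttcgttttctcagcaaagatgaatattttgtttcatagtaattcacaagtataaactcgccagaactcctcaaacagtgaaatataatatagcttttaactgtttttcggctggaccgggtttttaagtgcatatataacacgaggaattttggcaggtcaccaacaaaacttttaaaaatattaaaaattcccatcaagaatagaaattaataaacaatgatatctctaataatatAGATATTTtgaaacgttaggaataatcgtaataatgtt
ASB1, chr1:8839560-8839859, minus strand: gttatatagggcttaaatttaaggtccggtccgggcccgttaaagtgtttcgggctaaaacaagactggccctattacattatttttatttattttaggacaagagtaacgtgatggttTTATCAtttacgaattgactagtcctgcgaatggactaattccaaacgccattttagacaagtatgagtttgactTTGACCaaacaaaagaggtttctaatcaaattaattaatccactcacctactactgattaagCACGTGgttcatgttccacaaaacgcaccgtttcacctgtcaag
AT5G57670, chr5:23363790-23364089, minus strand: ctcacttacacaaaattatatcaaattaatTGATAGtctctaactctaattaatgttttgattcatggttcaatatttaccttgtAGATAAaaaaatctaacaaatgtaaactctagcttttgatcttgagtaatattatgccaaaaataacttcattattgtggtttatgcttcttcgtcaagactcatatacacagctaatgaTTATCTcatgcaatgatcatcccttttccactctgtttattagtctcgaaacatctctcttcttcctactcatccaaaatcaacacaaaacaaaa
The APK2 window held none of these letters, CYP79B2 held 1 evening element, and ASB1 held 1 GATA box, 1 G-box and 1 W-box core. The AT5G57670 window held 3 GATA boxes. Among windows of all 21742 tested nuclear genes with a sequence, 59.7% held a GATA box, 15.4% TTATCC, 8.55% a G-box, 5.66% an evening element, 5.32% a telo-box and 14.4% a W-box core. A match of letters is a description of the window and not evidence of binding.

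The other 5 negative genes included 3 with a gene symbol. MDAR3 (AT3G09940), a monodehydroascorbate reductase of the ascorbate cycle, was at 2.57, 2.6 and 1.79 CPM in Col-0 MS, 20.9, 17.8 and 16.3 CPM in Col-0 SUC, 8.19, 4.61 and 5.09 CPM in gnc gnl MS and 14, 16.5 and 12.9 CPM in gnc gnl SUC. XTH32 (AT2G36870), an enzyme of the xyloglucan endotransglucosylase/hydrolase family of the cell wall, was at 0.423, 0.592 and 0.337 CPM in Col-0 MS, 5.54, 6.55 and 3 CPM in Col-0 SUC, 3.63, 3.01 and 2.56 CPM in gnc gnl MS and 8.12, 5.88 and 5.45 CPM in gnc gnl SUC. NIP1-1 (AT4G19030), an aquaporin-like channel, was at 0.683, 1.12 and 0.623 CPM in Col-0 MS, 5.18, 5.51 and 9.22 CPM in Col-0 SUC, 8.08, 4 and 4.65 CPM in gnc gnl MS and 8.94, 11.3 and 5.47 CPM in gnc gnl SUC. In all 3 genes the Col-0 MS libraries stood alone at the bottom, and on SUC the genotypes overlapped. Each was higher in gnc gnl on MS, with log2 ratios of 1.37 ± 0.25, 2.77 ± 0.38 and 2.8 ± 0.38 (adjusted p = 0.0202, 0.00362 and 0.00362). Their differences were -1.71 ± 0.33, -2.4 ± 0.48 and -2.44 ± 0.49. NIP1-1 rose with sucrose in Col-0 by 3.05 ± 0.38, and its response in gnc gnl was 0.61 ± 0.32 (adjusted p = 0.156).

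AT4G23500 was at 6.08, 5.26 and 5.19 CPM in Col-0 MS, 17.5, 16.2 and 18.9 CPM in Col-0 SUC, 10.9, 8.82 and 8.63 CPM in gnc gnl MS and 16, 16.7 and 17.8 CPM in gnc gnl SUC. It rose in both genotypes, by 1.67 ± 0.10 and 0.83 ± 0.10, it was higher in gnc gnl on MS (log2 ratio 0.78 ± 0.11, adjusted p = 0.00362), and the SUC groups overlapped. AT1G72900 was at 11.4, 10.8 and 9.81 CPM in Col-0 MS, 16.2, 17.58 and 17.8 CPM in Col-0 SUC, 13.1, 14.7 and 12.6 CPM in gnc gnl MS and 8.61, 14.1 and 10.3 CPM in gnc gnl SUC. The genotypes were apart on both media, with gnc gnl above Col-0 on MS and below it on SUC. It rose in Col-0 by 0.69 ± 0.14 and had a response of -0.29 ± 0.14 in gnc gnl. The difference was -0.98 ± 0.20 (adjusted p = 0.293), and without gnc gnl SUC replicate 2 it was -1.21 with an adjusted p of 0.0385.

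Of the 8 genes of smallest p with a positive difference, 6 fell with sucrose in Col-0, a response that is part of the difference. AT5G57670 was at 30.8, 28 and 31.6 CPM in Col-0 MS, 11.2, 9.98 and 12.1 CPM in Col-0 SUC, 11.3, 11.3 and 12.6 CPM in gnc gnl MS and 7.18, 6.53 and 7.65 CPM in gnc gnl SUC. The gnc gnl MS libraries overlapped those of Col-0 SUC, and the gene was lower in gnc gnl on both media. It fell by 1.44 ± 0.10 in Col-0 and by 0.72 ± 0.10 in gnc gnl, for a difference of 0.72 ± 0.14 (adjusted p = 0.293). NAC029 (AT1G69490), also known as NAP, a NAC transcription factor of leaf senescence, was at 53.8, 47.8 and 59.5 CPM in Col-0 MS, 27.3, 29.6 and 26.5 CPM in Col-0 SUC, 25.6, 36.8 and 34.3 CPM in gnc gnl MS and 28.8, 32 and 30.8 CPM in gnc gnl SUC. Col-0 MS stood above all other groups. It fell by 0.95 ± 0.13 in Col-0, and its response in gnc gnl was -0.08 ± 0.13 (adjusted p = 0.691), a difference of 0.87 ± 0.18.

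FH14 (AT1G31810), a formin that binds actin and microtubules, was at 68.3, 74.3 and 82.7 CPM in Col-0 MS, 49.8, 52.9 and 46.5 CPM in Col-0 SUC, 47.9, 52.4 and 58.4 CPM in gnc gnl MS and 56.7, 50.3 and 59.1 CPM in gnc gnl SUC. Its pattern was that of NAC029, with Col-0 MS alone at the top and a difference of 0.66 ± 0.14. AT2G22080 had a similar layout over a small range, from 43.9 CPM in a Col-0 SUC library to 62.2 CPM in a Col-0 MS library, and a difference of 0.51 ± 0.10. CHR23 (AT5G19310), a chromatin remodelling ATPase of the SWI/SNF type, was at 20.5, 22.7 and 22 CPM in Col-0 MS, 12.2, 12.4 and 10.9 CPM in Col-0 SUC, 19.3, 19.5 and 19.2 CPM in gnc gnl MS and 16.4, 16.4 and 16.7 CPM in gnc gnl SUC. For CHR23 the genotypes were apart on both media, gnc gnl just below Col-0 on MS and above it on SUC, and it fell by 0.88 ± 0.10 in Col-0 with a response of -0.23 ± 0.10 in gnc gnl. MAF5 (AT5G65080), a MADS-box relative of the flowering repressor FLC, was at 6.83, 6.18 and 7.24 CPM in Col-0 MS, 2.45, 1.73 and 1.79 CPM in Col-0 SUC, 3.67, 5.23 and 5.28 CPM in gnc gnl MS and 2.44, 2.94 and 2.98 CPM in gnc gnl SUC. MAF5 fell in both genotypes, by 1.77 ± 0.16 and 0.76 ± 0.16, and its difference was 1.01 ± 0.23.

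For AT5G62170 and MYB27 (AT3G53200), an R2R3-MYB factor, the response was seen in gnc gnl. MYB27 was at 14.4, 9.57 and 12.5 CPM in Col-0 MS, 13.5, 15.1 and 12.3 CPM in Col-0 SUC, 6.34, 7.7 and 8.25 CPM in gnc gnl MS and 14.9, 14.1 and 19.4 CPM in gnc gnl SUC. The gnc gnl MS libraries lay below all others. MYB27 rose by 1.12 ± 0.16 in gnc gnl, its response in Col-0 was 0.17 ± 0.15 (adjusted p = 0.389), and the difference was 0.95 ± 0.22 (adjusted p = 0.328). AT5G62170 rose by 0.63 ± 0.09 in gnc gnl against a response of 0.03 ± 0.09 in Col-0, with gnc gnl MS again the lowest group.

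**Figure D3:**
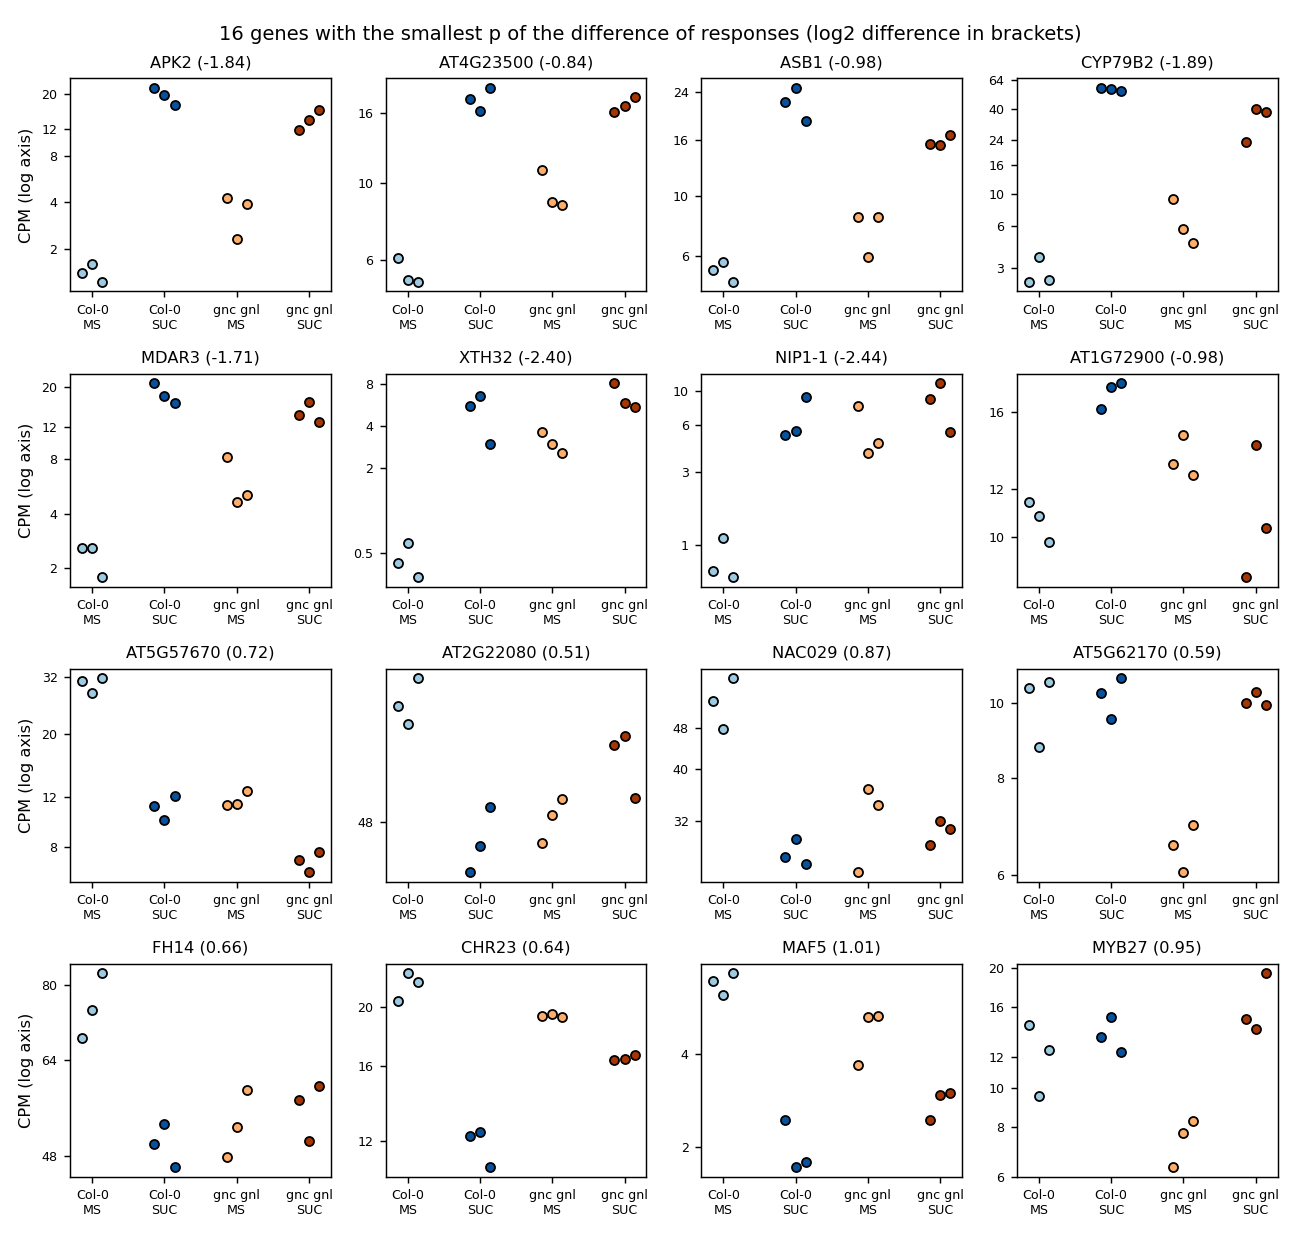
Level (CPM, log axis) of the 16 genes with the smallest p of the difference in each Col-0 and gnc gnl library; the bracket gives the log2 difference, and no gene passed the edgeR test. In the upper 8 panels Col-0 rises more than gnc gnl, mostly from a lower level on MS, and in the lower 8 Col-0 falls more or gnc gnl rises more.

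Gene lists by function are described by the median difference of their members and by counts of sign, beside 50.7% positive and a median of 0.00 over all genes tested. At an unadjusted p under 0.05, 2.78% of all genes were positive and 4.78% negative. Sucrose raised 26.0% and lowered 23.8% of all genes in Col-0, and raised 17.9% and lowered 14.3% in gnc gnl. No list held a gene called by edgeR, and DESeq2 called 4 members: CYP79B2, NIP1-1, PYL4 and EXT13. Of the 30 list medians, 25 moved by over 1.5 times or changed sign when 1 of the 12 libraries was left out, so single medians are imprecise. The root, immunity, antenna and glucosinolate lists had the largest negative medians. Glucosinolates are sulfur-rich defence compounds of the mustard family, and myrosinases are the enzymes that split them. Of 25 tested members of that list 21 had a negative difference, the median was -0.59, and 12 had an unadjusted p under 0.05, all negative. Most members rose with sucrose in both genotypes: 21 were called higher in Col-0 and 23 in gnc gnl, with median responses of 2.34 and 1.52. The members with an unadjusted p under 0.05, named after their values were seen, were the indole enzymes CYP79B2, CYP79B3 (-0.77), CYP83B1 (-0.82), CYP81F2 (-1.74) and CYP81F4 (-1.72), the C-S lyase SUR1 (-0.34), the glucosyltransferase UGT74B1 (-0.50), the sulfotransferases SOT16 (-0.61) and SOT17 (-1.03), the indole regulator MYB34 (-0.71), the aliphatic regulator MYB28 (-1.79) and the myrosinase TGG2 (-2.42). The indole regulators MYB51 (-0.32) and MYB122 (-0.59) were not among the 12. TGG2 was at 0.943, 0.164 and 0.493 CPM in Col-0 MS, 6.66, 8.58 and 8.07 CPM in Col-0 SUC, 10.04, 8.36 and 3.26 CPM in gnc gnl MS and 21, 19.1 and 18.3 CPM in gnc gnl SUC. In TGG2 gnc gnl lay above Col-0 on both media.

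Per library, the mean level of the glucosinolate list relative to Col-0 MS was 0.15, -0.02 and -0.13 in Col-0 MS and 0.57, 0.28 and 0.21 in gnc gnl MS. It was 1.64, 1.58 and 1.76 in Col-0 SUC and 1.43, 1.74 and 1.56 in gnc gnl SUC. As in the GNLox sets, the mean levels of the genotypes were apart on MS and overlapped on SUC. Gene by gene the list was unlike the full sets: the median log2 ratio of gnc gnl over Col-0 was 0.21 on MS and -0.30 on SUC. It was nearer the 871 genes with a rise of 2 or more log2 units in GNLox, at 0.48 and -0.26. The differences of its members ran from -2.42 to 4.32, so mean and median need not give the same picture.

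The root hair and root list held the lowest median, -0.94, with 24 of 25 members negative and 8 at an unadjusted p under 0.05. The median response was 1.82 in Col-0, where 16 members rose, and 0.92 in gnc gnl, where 13 rose. RHD2 (AT5G51060), the NADPH oxidase RBOHC of root hair tips, was at 5.69, 3.91 and 3.45 CPM in Col-0 MS, 17.9, 15.8 and 13.4 CPM in Col-0 SUC, 6.23, 5.23 and 5.6 CPM in gnc gnl MS and 9.76, 10.7 and 10.1 CPM in gnc gnl SUC. It rose by 1.85 ± 0.21 in Col-0 and 0.84 ± 0.20 in gnc gnl, and every gnc gnl SUC library lay below every Col-0 SUC library. PRP3 (AT3G62680), a proline-rich wall protein of root hairs, was at 0.553, 0.263 and 0.234 CPM in Col-0 MS, 17.1, 13.6 and 19.1 CPM in Col-0 SUC, 0.783, 0.330 and 0.790 CPM in gnc gnl MS and 10.1, 11 and 8.81 CPM in gnc gnl SUC. PRP3 was almost silent on MS in both genotypes, and on SUC the gnc gnl libraries lay below those of Col-0. Its difference was -1.65 ± 0.59 (adjusted p = 0.564). Other members at an unadjusted p under 0.05 were the bHLH regulators RHD6 (-0.94), RSL2 (-2.53) and RSL4 (-1.78) and the wall proteins LRX1 (-1.33), PRP1 (-2.89) and EXT13 (-5.42).

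The root list separated the genotypes on SUC. Its mean level was 1.54, 1.29 and 1.64 in Col-0 SUC and 0.96, 1.02 and 0.95 in gnc gnl SUC, without overlap, and 0.27, -0.11 and -0.16 in Col-0 MS against -0.10, -0.19 and 0.08 in gnc gnl MS, with overlap. With 1 library left out, the median difference moved most without gnc gnl MS replicate 3, to -0.14. The mean level of that library, 0.08, was not far from the -0.10 and -0.19 of its group. Why the median moved was not tested. Markers of root hair cells are part of this list, so the number of root hair cells and the RNA of each cannot be told apart.

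The immunity and camalexin list had a median difference of -0.88, with 23 of 24 members negative and 9 at an unadjusted p under 0.05. Sucrose raised 19 members in Col-0 and 13 in gnc gnl. ALD1 (AT2G13810), which makes the precursor of pipecolic acid, was at 0.683, 0.395 and 0.156 CPM in Col-0 MS, 18.8, 18.5 and 19.6 CPM in Col-0 SUC, 2.31, 0.618 and 0.443 CPM in gnc gnl MS and 3.18, 13.6 and 13.2 CPM in gnc gnl SUC. FOX1 (AT1G26380), an oxidase of indole defence metabolism, was at 0.228, 1.28 and 0.441 CPM in Col-0 MS, 17.8, 18.9 and 23.9 CPM in Col-0 SUC, 1.32, 0.412 and 1.14 CPM in gnc gnl MS and 0.960, 9.25 and 8.34 CPM in gnc gnl SUC. In both genes gnc gnl SUC replicate 1 was far below the other 2 gnc gnl SUC libraries, and those lay below all Col-0 SUC libraries. The same library stood apart over the list, at a mean level of 0.38 against 1.5 and 1.51, while Col-0 SUC was at 2.00, 2.03 and 1.91. Without it the median difference was -0.68. The salicylic acid genes ICS1 (-1.43), PAD4 (-0.84), EDS1 (-0.41), CBP60G (-1.63) and SARD1 (-0.91) were among the 9.

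**Figure D4:**
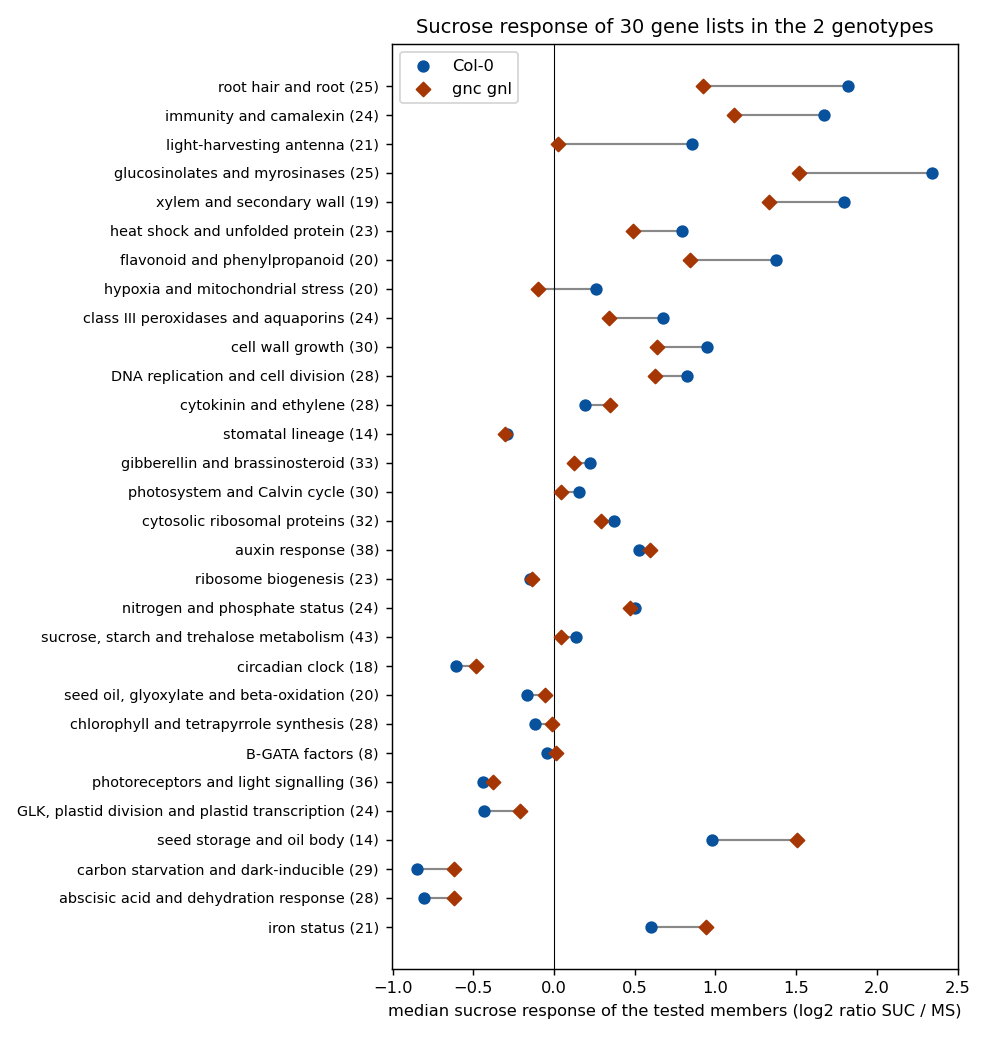
Median sucrose response (log2 ratio SUC over MS) of 30 gene lists in Col-0 (circles) and gnc gnl (diamonds), sorted by the median difference of the members, with the number of tested members in brackets. Lists with high Col-0 responses at the top have lower gnc gnl medians, such as 1.82 against 0.92 for root hair and root, and carbon starvation at -0.85 against -0.62 lies nearer 0 in gnc gnl.

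Wall and phenolic lists were shifted the same way by less. In the xylem and secondary wall list 16 of 19 members had a negative difference, with a median of -0.47 (-0.26 without gnc gnl MS replicate 1), and 18 rose in Col-0 and 17 in gnc gnl. LAC11 (AT5G03260), a laccase of lignin polymerization, was at 14.9, 14 and 10.9 CPM in Col-0 MS, 60.1, 60.3 and 53.3 CPM in Col-0 SUC, 19.1, 11.6 and 12.6 CPM in gnc gnl MS and 34.9, 21 and 38.6 CPM in gnc gnl SUC. XCP1 (AT4G35350), a xylem cysteine peptidase, was at 15.4, 10.6 and 12.1 CPM in Col-0 MS, 73.4, 63.5 and 62.6 CPM in Col-0 SUC, 19.4, 12.2 and 12.6 CPM in gnc gnl MS and 51.6, 36.6 and 48.5 CPM in gnc gnl SUC. Both genes overlapped on MS and were lower in every gnc gnl SUC library than in any Col-0 SUC library, with differences of -1.0 ± 0.32 and -0.76 ± 0.29. The flavonoid and phenylpropanoid list had a median of -0.32 (16 of 20 negative), with PAL1, the entry enzyme of the pathway, at -0.50 ± 0.25 and chalcone synthase CHS at -1.25 ± 1.16. The cell wall growth list had a median of -0.26 (24 of 30 negative), which was -0.17 without gnc gnl SUC replicate 2 and -0.41 without Col-0 MS replicate 1. In that list the expansin EXPA4 (AT2G39700) went the other way, with a difference of 0.85 ± 0.26, and XTH17 had one of -0.89 ± 0.56. EXPA4 was at 60.4, 59.4 and 71.3 CPM in Col-0 MS, 133, 146 and 85.8 CPM in Col-0 SUC, 32.9, 34.3 and 34.7 CPM in gnc gnl MS and 130.2, 86.5 and 134 CPM in gnc gnl SUC, lowest in gnc gnl MS.

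Stress lists had small, one-sided differences. The heat shock and unfolded protein list had 22 of 23 negative members and a median of -0.32, and 7 members, all negative, had an unadjusted p under 0.05. BIP2 (AT5G42020), a chaperone of the endoplasmic reticulum, was at 40.6, 35.6 and 32.3 CPM in Col-0 MS, 114, 121 and 110.2 CPM in Col-0 SUC, 62.9, 47.5 and 44.8 CPM in gnc gnl MS and 111, 110.4 and 108 CPM in gnc gnl SUC. BIP2 rose by 1.67 ± 0.13 in Col-0 and 1.09 ± 0.12 in gnc gnl, with every gnc gnl MS library above Col-0 MS, and its SUC groups overlapped. The lectin chaperone CNX1 had a difference of -0.42 ± 0.16. In the hypoxia and mitochondrial stress list 18 of 20 members were negative with a median of -0.30. ADH1 (AT1G77120), alcohol dehydrogenase, rose in Col-0 by 0.68 ± 0.20 and had a response of -0.15 ± 0.20 in gnc gnl, and OM66 (AT3G50930), an outer mitochondrial membrane AAA protein, had a difference of -0.92 ± 0.27. Among class III peroxidases and aquaporins 19 of 24 were negative (median -0.28), with PRX69 (AT5G64100) at -1.16 ± 0.36.

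Genes of DNA replication and cell division rose with sucrose in both genotypes, 24 of 28 in Col-0 and 20 in gnc gnl. Their median difference was -0.24, with 20 negative. MCM4 (AT2G16440), a subunit of the replicative helicase, was at 3.35, 3.52 and 4.1 CPM in Col-0 MS, 8.85, 9.71 and 6.56 CPM in Col-0 SUC, 7.62, 6.84 and 6.67 CPM in gnc gnl MS and 9.82, 9.59 and 9.07 CPM in gnc gnl SUC. MCM2 (AT1G44900), another subunit, was at 3.71, 3.52 and 3.69 CPM in Col-0 MS, 8.35, 9.12 and 6.53 CPM in Col-0 SUC, 7.51, 6.3 and 6.13 CPM in gnc gnl MS and 11.2, 9.16 and 9.36 CPM in gnc gnl SUC. Both were lowest in Col-0 MS, and both were higher in gnc gnl on MS, by 0.94 ± 0.15 and 0.87 ± 0.15 (log2; adjusted p = 0.0101 and 0.0158). Over the list the mean level was 0.55, 0.40 and 0.19 in gnc gnl MS, above all Col-0 MS libraries, and 1.01, 0.88 and 0.93 in gnc gnl SUC, above the 0.80, 0.84 and 0.59 of Col-0 SUC. The genotypes did not overlap on either medium in this list, but the gap on SUC was thin. The nearest libraries were at 0.8392 in Col-0 and 0.8764 in gnc gnl, beside a pooled SD within groups of 0.1192. The lists of cytosolic ribosomal proteins, ribosome biogenesis, stomatal lineage, and flavonoid and phenylpropanoid genes also had no overlap on either medium.

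Of the carbon starvation and dark-inducible genes, 25 of 29 had a positive difference, with a median of 0.27, and none had an unadjusted p under 0.05. They fell with sucrose in both genotypes, 25 members in Col-0 and 19 in gnc gnl. BCAT2 (AT1G10070), a branched-chain aminotransferase, was at 887, 1109 and 1399 CPM in Col-0 MS, 253, 321 and 479.7 CPM in Col-0 SUC, 739.8, 876 and 902 CPM in gnc gnl MS and 397, 649 and 399 CPM in gnc gnl SUC. LKR/SDH (AT4G33150), the bifunctional enzyme of lysine breakdown, was at 1320.2, 1544 and 1798 CPM in Col-0 MS, 456, 499 and 666 CPM in Col-0 SUC, 649.8, 1010.2 and 1211 CPM in gnc gnl MS and 432, 608 and 528 CPM in gnc gnl SUC. In both genes the SUC groups overlapped, and the gnc gnl MS libraries lay at the low end of Col-0 MS or below it. The differences were 0.89 ± 0.49 and 0.65 ± 0.32, with intervals of -0.16 to 1.94 and -0.03 to 1.33 that hold 0. Over the list the gnc gnl MS libraries, at -0.48, -0.29 and -0.19, lay below the Col-0 MS libraries at -0.05, -0.05 and 0.11, and the SUC groups overlapped.

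The abscisic acid and dehydration list had a median of 0.30 with 24 of 28 positive. KIN2, a cold and dehydration protein, and HAI1, a phosphatase of abscisic acid signalling, had differences of 0.70 ± 0.57 and 0.66 ± 0.50. The iron status list had a median of 0.30 with 17 of 21 positive. FER1 (AT5G01600), an iron storage ferritin, fell by 2.02 ± 0.32 in Col-0 and by 1.13 ± 0.31 in gnc gnl, a difference of 0.89 ± 0.43. The iron transporter IRT1 was nearly absent on MS, with at most 1.14 CPM in any library, and was at 12.8, 6.29 and 18.8 CPM in Col-0 SUC and 18.3, 33.5 and 14.4 CPM in gnc gnl SUC, which overlap. Seed storage and oil body genes had a median of 0.25 with 8 of 14 positive, at low levels. That median followed 1 library: gnc gnl SUC replicate 2 stood at a mean level of 1.77 against -0.19 and 0.67, and without it the median was -1.18.

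Greening genes, for which GNC and GNL are best known, gave mixed values. The light-harvesting antenna list had a median difference of -0.73 with 18 of 21 negative, and 5 of the 21 members rose in Col-0, a share below the 26.0% of all genes, and 0 in gnc gnl. LHCB1.2 (AT1G29910), a chlorophyll-binding protein of photosystem II, was at 6.11, 13.1 and 6.51 CPM in Col-0 MS, 56.1, 59.5 and 270.2 CPM in Col-0 SUC, 505, 80.8 and 36.7 CPM in gnc gnl MS and 85.4, 218 and 54.4 CPM in gnc gnl SUC. LHCB1.1 (AT1G29920), its near-identical neighbour, with which reads are uncertainly shared, was at 11.3, 42.8 and 13 CPM in Col-0 MS, 44.4, 57 and 250.2 CPM in Col-0 SUC, 433, 51.1 and 41.9 CPM in gnc gnl MS and 78.7, 205 and 23.8 CPM in gnc gnl SUC. In both, single libraries were far above their groups: gnc gnl MS replicate 1, Col-0 SUC replicate 3 and gnc gnl SUC replicate 2. Over the antenna list gnc gnl MS replicate 1 was at 2.14 against 0.61 and 0.42, and without it the median difference was -0.09. The photosystem and Calvin cycle list had a median of -0.08, which was 0.30 without the same library. Chlorophyll and tetrapyrrole synthesis had a median of 0.08 (17 of 28 positive), GLK, plastid division and plastid transcription 0.22 (18 of 24 positive), and light signalling 0.11 (23 of 36 positive). The first was -0.01 without Col-0 MS replicate 2, the second 0.10 without gnc gnl SUC replicate 2 and the third 0.18 without Col-0 SUC replicate 3. BBX20, a B-box factor of light signalling, fell by 1.85 ± 0.28 in Col-0 and by 0.999 ± 0.27 in gnc gnl, and HY5, the bZIP regulator of light responses, had a difference of 0.85 ± 0.46.

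**Figure D5:**
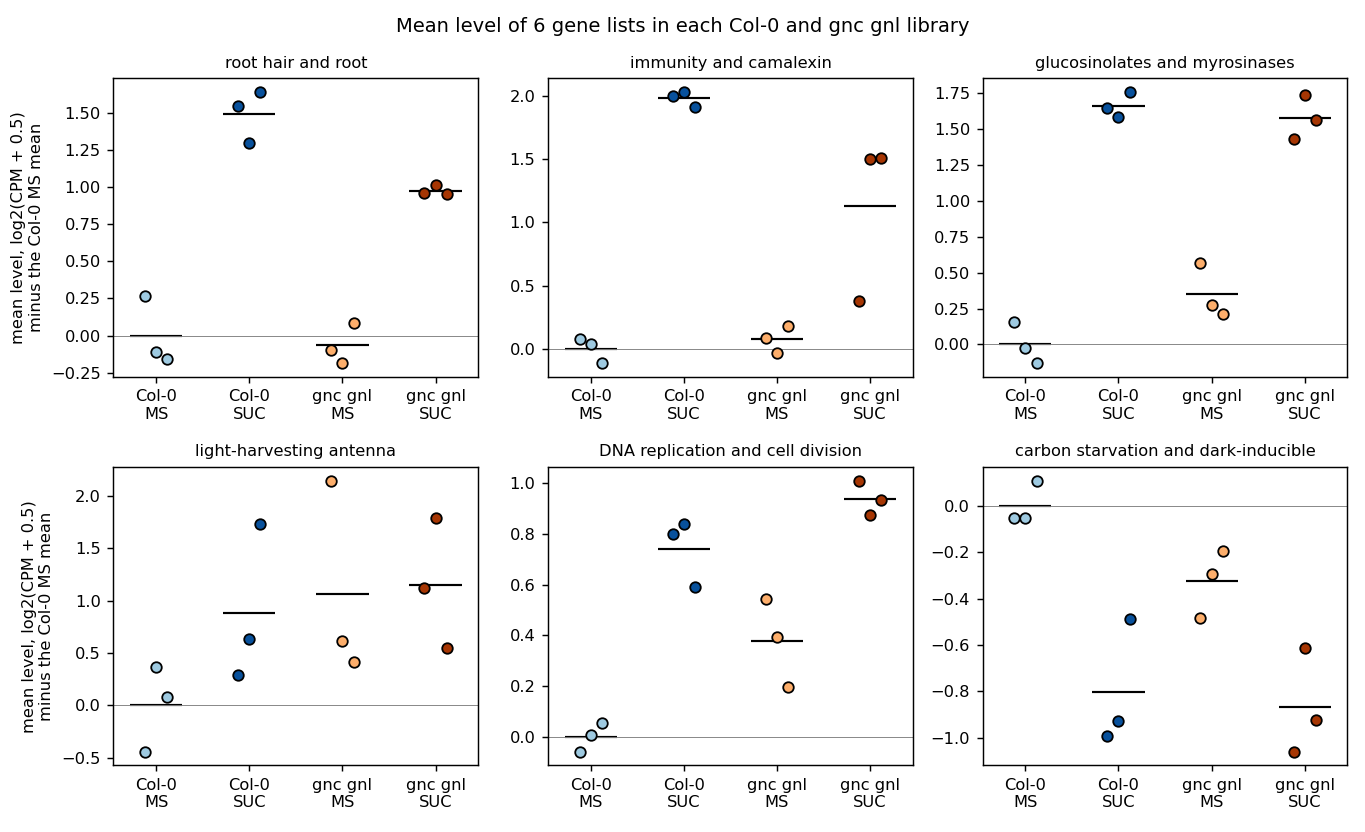
Mean level of 6 gene lists, as log2(CPM + 0.5) minus the Col-0 MS mean, in each Col-0 and gnc gnl library (points, bars are means of 3). By this mean, root genes separate the genotypes on SUC, replication genes on both media, and glucosinolate and starvation genes on MS. The gap of the replication genes on SUC is thin. Single libraries stand apart for immunity (gnc gnl SUC at 0.38) and antenna genes (gnc gnl MS at 2.14).

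Several lists had medians near 0. Cytosolic ribosomal proteins had a median difference of -0.07 with 26 of 32 members negative (81.2%, beside 49.3% of all genes), and it ran from -0.128 without gnc gnl MS replicate 3 to -0.00255 without gnc gnl MS replicate 1. The interval lay within 1 log2 unit for all 32 members, so a difference of that size was outside the interval of each. They rose with sucrose in both genotypes, 24 members in Col-0 and 20 in gnc gnl, with RPL4D at 0.71 ± 0.09 and 0.42 ± 0.09. Ribosome biogenesis (-0.01), the circadian clock (0.01), nitrogen and phosphate status (0.00), and sucrose, starch and trehalose metabolism (0.00) were as close to 0. In the last, the sucrose synthase SUS4 (AT3G43190) was at 8.75, 3.19 and 2 CPM in Col-0 MS, 11.4, 10.8 and 11.4 CPM in Col-0 SUC, 4.34, 4.7 and 2.78 CPM in gnc gnl MS and 4.03, 3.31 and 5.6 CPM in gnc gnl SUC. It rose in Col-0 by 1.28 ± 0.42, its response in gnc gnl was 0.14 ± 0.43 (adjusted p = 0.832), and the difference was -1.13 ± 0.60 with an interval of -2.42 to 0.15.

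Hormone lists had medians of -0.03 for auxin response, -0.08 for gibberellin and brassinosteroid and -0.10 for cytokinin and ethylene, the pathways known to act through GNC and GNL among them. ARR7 (AT1G19050), a type-A response regulator of cytokinin, was at 3.71, 4.77 and 3.14 CPM in Col-0 MS, 5.47, 5.96 and 6.02 CPM in Col-0 SUC, 2.63, 3.25 and 3.13 CPM in gnc gnl MS and 9.9, 9.16 and 7.43 CPM in gnc gnl SUC. ARR7 rose by 0.59 ± 0.22 in Col-0 and 1.55 ± 0.23 in gnc gnl, with every gnc gnl SUC library above every Col-0 SUC library, a difference of 0.96 ± 0.31 (adjusted p = 0.488). GASA4, a gibberellin-regulated peptide, rose in gnc gnl by 1.07 ± 0.22 with a response of 0.45 ± 0.22 in Col-0. The auxin repressor genes IAA29 and IAA20 had differences of 1.2 ± 0.65 and 0.99 ± 0.59, neither called. The nitrate transporter NRT2.1 (AT1G08090) was at 14.4, 12.6 and 7.89 CPM in Col-0 MS, 3.35, 3.75 and 1.41 CPM in Col-0 SUC, 0.783, 2.97 and 5.75 CPM in gnc gnl MS and 8.75, 1.05 and 7.16 CPM in gnc gnl SUC. It fell in Col-0 by 2.04 ± 0.72 and had a response of 0.83 ± 0.72 in gnc gnl, whose SUC libraries ran from 1.05 to 8.75 CPM, and the difference was 2.87 ± 1.02. MLS (AT5G03860), malate synthase of the glyoxylate cycle, was at 9.82, 29.7 and 12 CPM in Col-0 MS, 6.55, 8.19 and 10.1 CPM in Col-0 SUC, 35, 62.6 and 50.08 CPM in gnc gnl MS and 52.5, 56.6 and 51.8 CPM in gnc gnl SUC. It was higher in gnc gnl on SUC (log2 2.69 ± 0.37, adjusted p = 0.00487), fell in Col-0 by 1.04 ± 0.36, and had a response of 0.12 ± 0.34 in gnc gnl and a difference of 1.17 ± 0.50 (adjusted p = 0.625). Without Col-0 MS replicate 2, the highest of its group, the MLS difference was 0.52.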

How the data were processed

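Gene expression was measured by RNA sequencing of total RNA from 18 libraries, 3 in each of 6 groups. The deposited tables, 1 for each library with 32833 genes, hold counts of total and unique gene reads, per the file headers. The authors mapped to TAIR10, per the submitters' processing notes. No source used here gives the aligner, the counting program or the strand of the reads, so genes that overlap on opposite strands may share reads and near-identical paralogs are uncertain.

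Tests used total gene reads and edgeR 4.0.16 (R 4.3.3, limma 3.58.1): the filterByExpr filter kept 21903 genes, of which 21743 were nuclear, with TMM scaling, 1 model of 6 group means (12 residual degrees of freedom, common dispersion 0.0289) and robust quasi-likelihood. Calls are at a Benjamini-Hochberg adjusted p under 0.05 over all genes, two-sided. The SE is the log2 value divided by the root of F, and 95% intervals use the t distribution. Values after ± are SE with n = 3 libraries a group. CPM use the TMM-normalized library size, and list levels are means of log2(CPM + 0.5). Replicates are not described as separate cultures, so the spread behind the p-values may be technical. Chi square per degree of freedom between replicates of the 4 groups was 20.8 to 259.5, so none was a duplicate.

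The genes, the 30 lists (776 distinct genes) and the comparisons were chosen with earlier results of these data known. The naming rule took GNC, GNL, the 8 genes of smallest p in each direction whose mean reached 1 CPM, and the 2 members of each list with the largest absolute difference and at least 5 CPM. The alternatives were RLE scaling, no filter on low counts, DESeq2 1.42.0, only the 12 libraries, a replicate block, unique reads, nuclear genes without rRNA genes and each library left out. Leaving out both libraries with over 20% nuclear rRNA together was added after seeing the data. The fit was tested on simulated data.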

Additional observations from a re-analysis of the deposited data

How the results depend on the processing

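The count of 0 genes called in the difference of sucrose responses, higher or lower, held with RLE scaling, with no filter on low counts, in a fit of only the 12 libraries, with unique reads and with nuclear genes without rRNA genes. DESeq2's Wald test called 68 genes, 12 with a positive and 56 with a negative difference, including all 16 leading genes, and the cause was not tested. Leaving out 1 library at a time gave 0 to 1 calls (0 to 1 negative, 0 positive): APK2 without gnc gnl MS replicate 2 (log2 difference -2.06) and AT1G72900 without gnc gnl SUC replicate 2 (-1.21). Without both libraries over 20% nuclear rRNA, chosen after seeing the data, 1 gene was called, with 1 negative and 0 positive: APK2, at -1.98. The adjusted p of APK2 ran from 1.95e-06 to 0.71 over its 20 alternatives. With a replicate block 0 genes were called and 1929 had an unadjusted p under 0.05, against 1656 without it. Same-numbered libraries correlated at -0.363 to 0.269 in their deviations from the group means. Between MS and SUC of 1 genotype they correlated at -0.0386 to 0.269, against -0.252 to 0.164 for libraries of different number. The block had 1 effect a number over all groups, so pairing of MS with SUC within a genotype was not tested. Of 1460 values of single named genes under alternatives, 1439 kept their direction and side of the threshold, 19 passed it, and 2 reversed when 1 library was left out: GA20OX2 ran from -1.15 to 0.0944 (the latter without Col-0 SUC replicate 3) and IRT1 from -5.99 to 0.94 (the latter without gnc gnl MS replicate 1). Of 600 list medians, 560 moved by less than the spread between libraries and 40 by more. With 1 library left out the median difference ran from -0.74 to -0.41 for glucosinolates, -0.38 to -0.12 for DNA replication (nearest 0 without gnc gnl MS replicate 1), 0.14 to 0.49 for carbon starvation (nearest 0 without gnc gnl SUC replicate 2), 0.16 to 0.45 for abscisic acid (nearest 0 without gnc gnl MS replicate 1), 0.15 to 0.46 for iron status (nearest 0 without gnc gnl SUC replicate 2) and -0.51 to -0.12 for peroxidases and aquaporins (nearest 0 without Col-0 MS replicate 3). Of the 73 named genes, 28 moved by over 1.5 times or changed sign with 1 library left out. Among them CHS ran from -3.71 to -0.50, LHCB1.1 from -4.18 to -1.26, LHCB1.2 from -5.49 to -2.89, ALD1 from -3.0 to -1.31, SUS4 from -1.97 to -0.76, XTH17 from -1.50 to -0.63, HAI1 from 0.29 to 1.06 and KIN2 from 0.40 to 1.13. The 95% interval of the difference reached past 1 log2 unit for the genes outside the 14687 counted above.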

Other observations

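Of the 68 genes called by DESeq2, a few with a known role are given here, singled out after their values were seen, so no pathway is set apart by them. DHS1, the first enzyme of the shikimate pathway, had a log2 difference of -0.75 in that test, the anthranilate synthase subunits ASA1 and ASB1 had -1.15 and -0.99, and the tryptophan synthase alpha subunit TSA1 had -1.13. CYP79B2 was at -1.90, the indole glucosinolate methyltransferase IGMT3 at -2.41 and APK2 at -1.86. None of these was called by edgeR with all libraries. Other genes among the 68 were the amino acid importer LHT1 (-0.95), the defence transcription factor WRKY51 (-0.93) and the abscisic acid receptor PYL4 (-0.54).

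APK2, CYP79B2, DHS1 and the arabinogalactan protein gene AGP3 lie within chr4:18519599-18581696 of TAIR10, a stretch near the end of the chromosome noticed after the values were seen. Its ends were set by APK2 and AGP3, so the counts in it are a description. Of the 22 tested genes there, 15 (68.2%) had a negative difference, beside 49.3% of all genes, and the median difference was -0.11. An unadjusted p under 0.05 was found for 5 (22.7%, beside 7.56% of all genes): the 4 genes named, all negative, and AT4G40042, with a positive difference of 0.36. AT4G40030 and the histone gene HTR8 in the same stretch had differences of -0.01 and 0.07.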
